A study of Mus musculus with 14 samples.

Results

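The 9 genes described here are components of the Notch pathway, with Atoh1, the secretory fate gene that it restrains in the intestine. They were the receptors Notch1 and Notch2, the ligands Dll1, Dll4, Jag1 and Jag2, the target genes Hes1 and Hey1, and Atoh1. The genes were chosen by symbol, with GENCODE M21 symbols assigned to the Ensembl gene identifiers of the files, and all 9 were among the 17487 genes listed for every library. RNA-seq counts came from mouse tumor organoids of small-intestinal origin, named APT organoids, which carried doxycycline-inducible short hairpins. Hairpin 1 (3 libraries) was directed at exon 4 of Suv4-20h2, and was set against control 1 (3 libraries, titled shCtrl). Hairpin 2 (4 libraries) was directed at exon 9, and was set against control 2 (4 libraries, also titled shCtrl). The labels give each of the 4 groups a clone number (1 or 2, as the hairpin), give no genotype beyond the name APT and the hairpin, and carry the same treatment entry, chromatin compaction, in every group. All 14 libraries, controls included, came from organoids kept in 0.5 µg/ml doxycycline for 4 days. Hairpin 1 and control 1 are called set 1, and hairpin 2 and control 2 are called set 2. No library is shared between the sets, and the labels do not say whether replicates were grown as separate cultures; the spread behind each p-value is that between libraries and may be technical.

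Notch receptors are cleaved when a Delta-like or Jagged ligand on a neighbouring cell binds them, and the freed intracellular part joins the DNA-binding protein RBPJ to switch on target genes such as Hes1. In the intestinal crypt, cells with active Notch make the repressor HES1, which holds Atoh1 down and leaves the cell on the absorptive path. Cells that escape the signal express Atoh1, a basic helix-loop-helix activator, and Delta-like ligands, and become goblet, Paneth, enteroendocrine or tuft cells.

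The stretches just upstream of the start sites of Atoh1, Dll4 and Dll1 are shown because these 3 mRNAs were each at their lowest among the set 1 libraries in the same library, hairpin 1 replicate 1. Each stretch is 250 bases from RefSeq on build GRCm38.p6, written 5′ to 3′ on the gene's strand, and capitals mark CANNTG, the E-box that basic helix-loop-helix proteins such as ATOH1 recognise. The Atoh1 stretch is chr6:64728875-64729124 on the plus strand, the Dll4 stretch is chr2:119325534-119325783 on the plus strand, and the Dll1 stretch, the outer of a pair of listed start sites, is chr17:15376933-15377182 on the minus strand.
Atoh1: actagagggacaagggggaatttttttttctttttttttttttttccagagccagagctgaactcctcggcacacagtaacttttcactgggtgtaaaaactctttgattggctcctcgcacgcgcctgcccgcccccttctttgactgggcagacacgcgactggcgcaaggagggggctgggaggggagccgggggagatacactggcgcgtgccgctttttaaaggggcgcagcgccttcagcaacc
Dll4: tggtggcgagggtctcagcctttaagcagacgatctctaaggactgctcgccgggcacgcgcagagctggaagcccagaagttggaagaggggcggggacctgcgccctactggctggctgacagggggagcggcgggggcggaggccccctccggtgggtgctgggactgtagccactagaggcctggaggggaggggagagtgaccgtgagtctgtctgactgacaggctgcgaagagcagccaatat
Dll1: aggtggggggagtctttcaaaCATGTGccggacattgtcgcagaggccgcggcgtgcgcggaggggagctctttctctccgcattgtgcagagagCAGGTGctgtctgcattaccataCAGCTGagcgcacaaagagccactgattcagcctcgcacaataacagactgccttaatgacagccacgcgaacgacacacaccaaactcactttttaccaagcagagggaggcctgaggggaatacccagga
The Dll1 stretch shown held 3 matches to CANNTG, the inner Dll1 stretch, not shown, held 1, and those of Atoh1 and Dll4 held none. Of the 9 genes, 7 had an entry in the RefSeq promoter table, with 8 stretches in all. The target genes Hes1 and Hey1 had no entry, so neither motif was searched for there. CANNTG, searched on both strands, was in 3 of the 8 stretches, and in 66.2% of 32851 stretches of the same length. TGGGAA, the core of the RBPJ site, also searched on both strands, was in 0 of the 8 stretches and in 21.6% of all. The letters describe these windows only.

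Total counts ran from 9272134 to 26284079 per library. Values are CPM, counts scaled to a common library total with TMM factors, levels of different genes are compared as CPM per kilobase of exon, and errors are SD over libraries unless named. Suv4-20h2 is listed as Kmt5c, an enzyme that methylates lysine 20 of histone H4. Kmt5c was at 53.5, 64.2 and 56.0 CPM in hairpin 1 against 72.2, 75.7 and 67.2 CPM in control 1, and at 114, 111, 99.3 and 106 CPM in hairpin 2 against 129, 121, 116 and 128 CPM in control 2. The groups did not overlap in either set, but the log2 fold changes of -0.31 (SE 0.175) and -0.20 (SE 0.0619) had adjusted p = 0.801 and 0.0977 in edgeR's quasi-likelihood test. With the replicate number added as a block, the Kmt5c value for hairpin 2 was -0.20 with adjusted p = 0.00741. Epithelial genes (7 listed, Epcam and Cdh1 among them) summed to 5306 to 6924 CPM in hairpin 1 and 4960 to 6646 CPM in control 1, and to 4390 to 5015 CPM in hairpin 2 and 5550 to 5696 CPM in control 2. Of the endothelial markers, Pecam1 was at 0 in hairpin 1 replicate 1, while Cdh5 was at 49.4 CPM there, against 0.47 to 2.15 CPM in control 1. Hairpin 1 replicate 1 stood apart: its chi-square per gene against the other hairpin 1 libraries was 252 and 296, while those libraries differed from each other by 23.9. The fitted differences of the tested members in set 1 are therefore given with and without it. In set 2 the replicate 4 libraries stood apart within each group, at 20.2 to 32.9 against 2.99 to 5.2 among replicates 1 to 3.

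**Figure D1:**
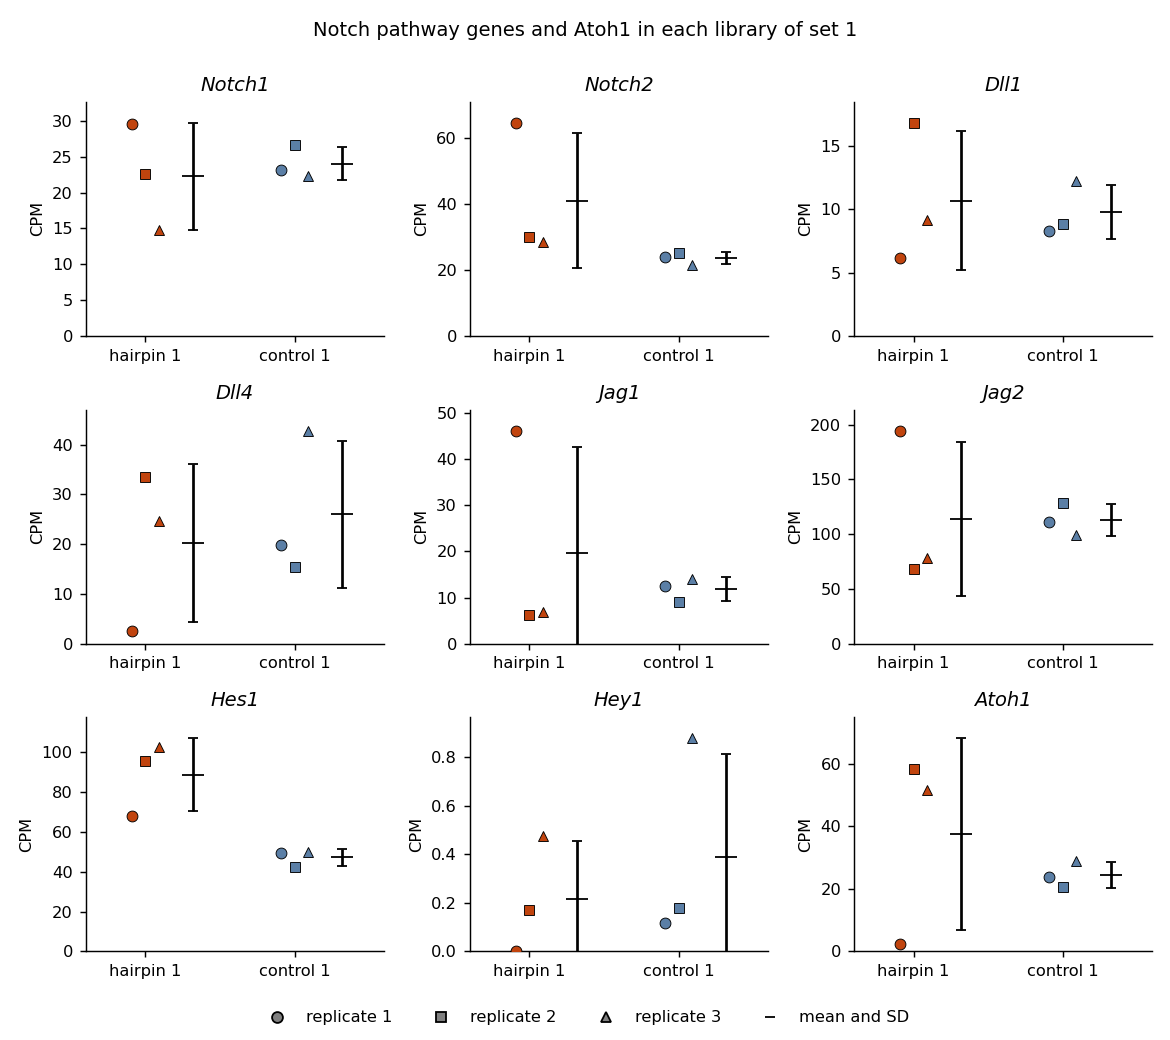
CPM of the 9 genes in each library of set 1, hairpin 1 at the left of control 1 in each panel; the symbol shape is the replicate, and the bar is the mean and SD (n = 3 each), with bars that pass below 0 ending at the axis. Hes1 is at 68.3 to 102 CPM in hairpin 1 and at 42.2 to 49.99 CPM in control 1, and hairpin 1 replicate 1 lies far from the other hairpin 1 libraries for Dll4, Jag1, Jag2, Notch2 and Atoh1.

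**Figure D2:**
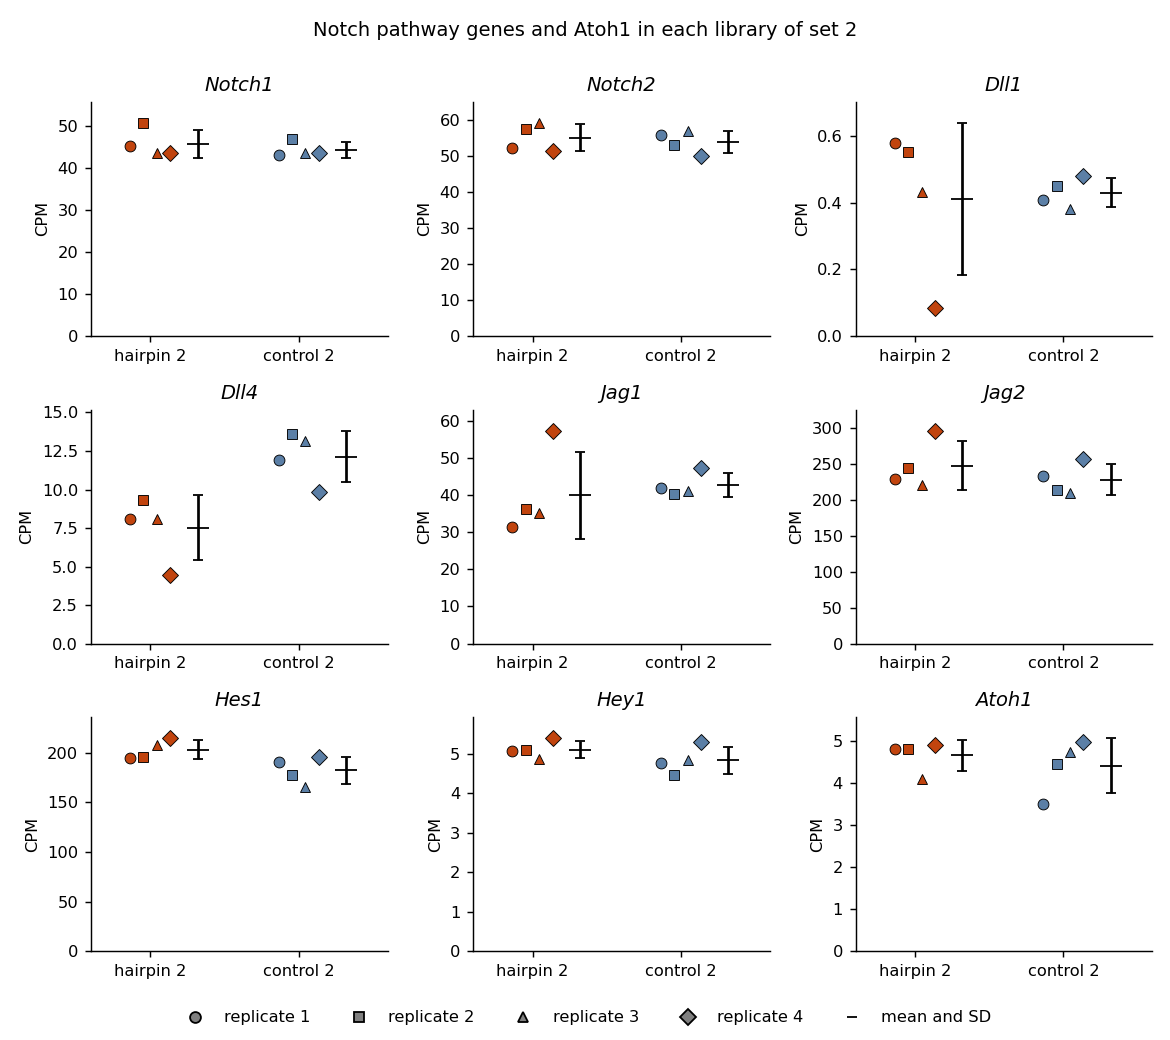
CPM of the 9 genes in each library of set 2, hairpin 2 at the left of control 2 in each panel, drawn as for set 1 (n = 4 each). Dll4 is at 4.48 to 9.35 CPM in hairpin 2 and at 9.86 to 13.6 CPM in control 2, while the other 8 genes overlap between the groups.

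No member passed an adjusted p of 0.05 under either hairpin in edgeR's test without a block. For hairpin 1, 8 of the 9 genes were tested and 0 were called, beside 0 of 13540 genes over the whole table (0%; edgeR, smallest adjusted p = 0.801, 733 genes at an unadjusted p under 0.05, and 22 genes called by DESeq2's Wald test). For hairpin 2, all 9 were tested and 0 were called, beside 854 of 14126 genes (6.05%), of which 288 were higher (2.04%) and 566 lower (4.01%) in hairpin 2. With the replicate number as a block, 2 of the 9 were called (Dll4, lower, and Hes1, higher), beside 2880 genes (20.4%). At an unadjusted p under 0.05 there were 1 member for hairpin 1 (Hes1), beside 5.41% of genes, and 2 for hairpin 2 (Hes1 and Dll4), beside 19.8%. With DESeq2's Wald test the counts were 0 of 8 for hairpin 1, beside the 22 genes called over the whole table, and 1 of 9 for hairpin 2. For hairpin 2 that test also called more genes over the whole table than the 854 of edgeR. Libraries did not overlap between the groups for 2 members in set 1, both higher in hairpin 1, beside 6.48% of genes higher and 6.37% lower there (12.9% in either direction). In set 2 they did not overlap for 1 member, lower in hairpin 2, beside 8.43% of genes lower and 6.9% higher (15.3% in either direction).

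The receptors are the signal-receiving end of the pathway. Notch1, on chromosome 2 (26457903 to 26516663, minus strand; ENSMUSG00000026923), was at 29.6, 22.5 and 14.7 CPM in hairpin 1 against 23.1, 26.6 and 22.3 CPM in control 1. In set 2 it was at 45.4, 50.8, 43.7 and 43.6 CPM in hairpin 2 against 43.1, 47.1, 43.7 and 43.7 CPM in control 2. The groups overlapped in both sets, with log2 fold changes of -0.11 (SE 0.300, adjusted p = 0.95, edgeR) for hairpin 1, or -0.37 without its replicate 1, and 0.05 (SE 0.0681, adjusted p = 0.751, edgeR) for hairpin 2. Notch2, the other receptor of the crypt, lies on chromosome 3 (98013527 to 98150361, plus strand; ENSMUSG00000027878). It was at 64.7, 30.0 and 28.4 CPM in hairpin 1 against 24.1, 25.2 and 21.7 CPM in control 1, so all 3 hairpin 1 libraries were above the controls and replicate 1 was far above the rest. The Notch2 log2 fold change was 0.80 (SE 0.353, adjusted p = 0.801, edgeR) and 0.30 without hairpin 1 replicate 1. Its value in set 2 was 55.1 ± 3.84 CPM in hairpin 2 and 53.9 ± 3.06 CPM in control 2 (n = 4 each), overlapping throughout (log2 0.03, SE 0.0696, adjusted p = 0.865, edgeR).

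Set on a per-kilobase scale, Notch1 made up 25.7, 36.3 and 28.2% of the Notch1 plus Notch2 level in hairpin 1, and 42.1 to 44.5% in control 1, with no overlap. In set 2 the Notch1 share was 38.7 ± 1.92% in hairpin 2 and 38.5 ± 1.84% in control 2. The receptor balance of set 1 therefore leaned to Notch2 in each hairpin 1 library, while that of set 2 was the same within its spread. Genes of chromosome 3 had medians of 0.08 to 0.10 on the log2 scale in the hairpin 1 libraries relative to the control 1 mean, and the part of this in Notch2 was not tested. Outside the 9 genes, Notch3 was at 6.12, 0.90 and 0.48 CPM in hairpin 1 against 2.96, 0.71 and 0.88 CPM in control 1, and at 61.1, 58.8, 64.7 and 42.0 CPM in hairpin 2 against 56.2, 50.7, 56.3 and 39.5 CPM in control 2. Notch4 was at 24.3, 4.21 and 5.19 CPM in hairpin 1 against 12.1, 5.30 and 6.32 CPM in control 1. Neither passed the test in either set.

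Delta-like ligands are the ligands of secretory precursors and Paneth cells. Dll4, on chromosome 2 (119325784 to 119335962, plus strand; ENSMUSG00000027314), was the ligand with the smallest p in set 2, though short of the threshold. It was at 8.11, 9.35, 8.11 and 4.48 CPM in hairpin 2, against 11.9, 13.6, 13.1 and 9.86 CPM in control 2. All 4 hairpin 2 libraries lay below all 4 controls, and replicate 4 was the lowest of its group on both sides. The means were 7.511 ± 2.103 and 12.1 ± 1.67 CPM for hairpin 2 and control 2 (n = 4 each). The log2 fold change was -0.67 (SE 0.197, adjusted p = 0.0793, edgeR). It was past the threshold with the replicate number as a block (-0.69, adjusted p = 0.00103), and in DESeq2's Wald test (-0.68, adjusted p = 0.0152). Without hairpin 2 replicate 4, the library with the lowest value, the Dll4 difference was -0.50 with adjusted p = 0.0361, and without both replicate 4 libraries it was -0.58 with adjusted p = 0.000513. In the model of all 14 libraries it did not pass.

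In set 1 Dll4 was at 2.58, 33.5 and 24.6 CPM in hairpin 1 against 19.8, 15.4 and 42.8 CPM in control 1. Hairpin 1 replicate 1 was the lowest of the 6, and the other hairpin 1 libraries lay within the control range. The Dll4 log2 fold change was -0.36 (SE 0.815, adjusted p = 0.937, edgeR) and 0.16 without that library. Dll1, on chromosome 17 (15367354 to 15376872, minus strand; ENSMUSG00000014773), was at 6.12, 16.8 and 9.16 CPM in hairpin 1 against 8.31, 8.84 and 12.3 CPM in control 1, with a log2 fold change of 0.12 (SE 0.428, adjusted p = 0.959, edgeR) and of 0.40 without hairpin 1 replicate 1. Its groups overlapped. In set 2 Dll1 was near the limit of the counts, with 13, 14, 4 and 1 counts in hairpin 2 against 9, 9, 10 and 12 counts in control 2. These correspond to 0.0830 to 0.579 CPM in hairpin 2 and 0.382 to 0.481 CPM in control 2, and no difference was detectable at this depth.

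Jag1 and Jag2 encode the Jagged ligands. Jag1, on chromosome 2 (137081456 to 137116644, minus strand; ENSMUSG00000027276), was at 46.1, 6.28 and 6.78 CPM in hairpin 1 against 12.5, 9.02 and 13.9 CPM in control 1. Hairpin 1 replicate 1 was above every control and the other hairpin 1 libraries were below every control, so the sign of the Jag1 difference rested on 1 library: the log2 fold change was 0.74 (SE 0.772, adjusted p = 0.855, edgeR), and -0.86 without it. In set 2 Jag1 was at 31.2, 36.1, 35.1 and 57.2 CPM in hairpin 2 against 41.9, 40.3, 40.9 and 47.4 CPM in control 2. Here too the replicates divided, with hairpin 2 replicate 4 above and replicates 1 to 3 below all controls. The Jag1 difference was -0.10 (SE 0.165, adjusted p = 0.803, edgeR), and -0.32 with adjusted p = 0.0309 without hairpin 2 replicate 4. Without both replicate 4 libraries it was -0.27 with adjusted p = 0.00773.

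Jag2, on chromosome 12 (112907819 to 112929776, minus strand; ENSMUSG00000002799), was the most abundant ligand per kilobase on average in each of the 4 groups, at 16.3 ± 10.1 CPM per kb in hairpin 1 and 16.2 ± 2.12 CPM per kb in control 1, and at 35.5 ± 4.89 CPM per kb in hairpin 2 and 32.8 ± 3.11 CPM per kb in control 2. By library it was at 194, 68.3 and 78.3 CPM in hairpin 1 against 111, 129 and 99.3 CPM in control 1. Once more the high value was in replicate 1, and the other hairpin 1 libraries were below every control: the log2 fold change was 0.01 (SE 0.402, adjusted p = 0.996, edgeR), and -0.63 (adjusted p = 0.171) without hairpin 1 replicate 1. The median gene of chromosome 12 in that library was 0.67 above the control 1 mean on the log2 scale, against 0.02 and -0.01 in the other hairpin 1 libraries, and its part in the Jag2 value was not tested. In set 2 Jag2 was at 229, 244, 220 and 296 CPM in hairpin 2 against 233, 214, 209 and 257 CPM in control 2, overlapping (log2 0.12, SE 0.101, adjusted p = 0.593, edgeR). Chromosome 12 medians were 0.11 to 0.13 in hairpin 2 and -0.01 to 0.02 in control 2.

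The mix of ligands shows these values together. Dll1 plus Dll4 made up 5.59, 53.8 and 40.8% of the summed per-kilobase level of the 4 ligands in hairpin 1, against 28.2, 23.3 and 45.7% in control 1. Hairpin 1 thus held both the lowest and the highest Delta-like share of set 1. In set 2 the Delta-like share was 5.55, 5.84, 5.54 and 2.21% in hairpin 2 against 7.29, 8.84, 8.62 and 5.61% in control 2, with hairpin 2 replicate 2 just above control 2 replicate 4. The Jag2 share was 80.0 ± 0.85% in hairpin 2 and 75.5 ± 1.57% in control 2 (n = 4 each), without overlap. These shares are descriptions of the same counts and were not tested.

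**Figure D3:**
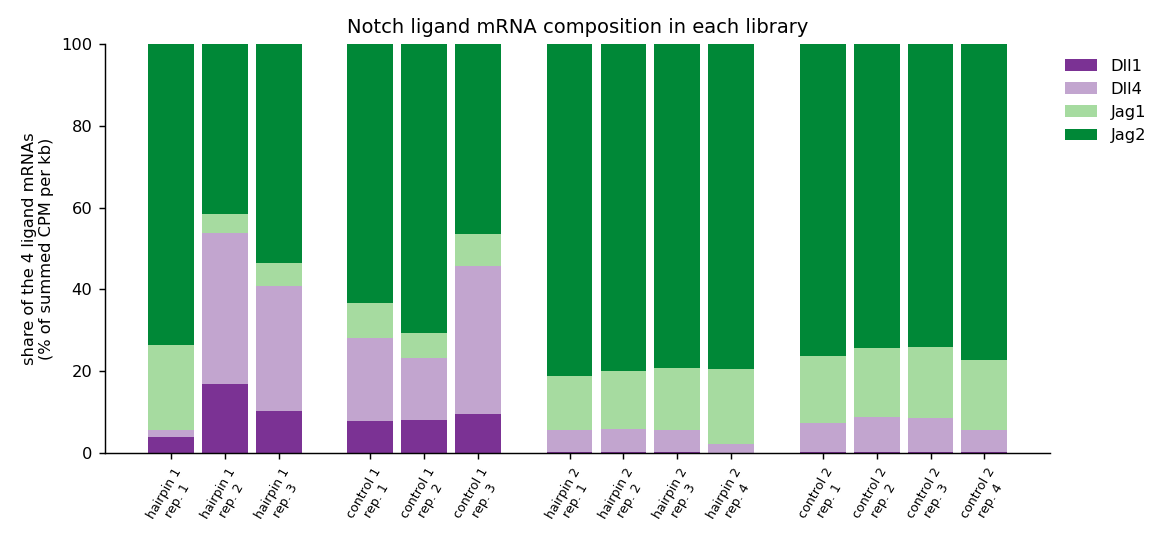
Share of each ligand in the summed CPM per kilobase of Dll1, Dll4, Jag1 and Jag2, 1 bar per library. Dll1 plus Dll4 (purple, at the foot) take 5.59 to 53.8% in hairpin 1, 23.3 to 45.7% in control 1, 2.21 to 5.84% in hairpin 2 and 5.61 to 8.84% in control 2.

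Hes1 encodes the repressor that carries the Notch signal to Atoh1, and was the member with the smallest p for hairpin 1. Hes1, on chromosome 16 (30064384 to 30067796, plus strand; ENSMUSG00000022528), was at 68.3, 95.9 and 102 CPM in hairpin 1 against 49.5, 42.2 and 49.99 CPM in control 1. The groups did not overlap, and replicate 1, which stood apart for other genes, was the lowest of the hairpin 1 libraries but still above each control. The means were 88.9 ± 18.2 and 47.2 ± 4.40 CPM for hairpin 1 and control 1 (n = 3 each), and the log2 fold change was 0.91 (SE 0.217). Its adjusted p was 0.801 in edgeR's test, although Hes1 ranked 31 of 13540 genes by p. Leaving out each library in turn gave 0.83 to 1.07, with adjusted p from 0.0658 (without hairpin 1 replicate 1) to 0.999. The model of all 14 libraries, in which both sets share 1 estimate of the spread, gave 0.92 with adjusted p = 0.0199.

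For hairpin 2, Hes1 was at 194, 196, 208 and 214 CPM against 191, 178, 166 and 195 CPM in control 2. The values of hairpin 2 replicate 1 and control 2 replicate 4 crossed, and the other hairpin 2 libraries were above all controls. The Hes1 log2 fold change was 0.15 (SE 0.0657, adjusted p = 0.223, edgeR), and 0.16 with adjusted p = 0.0481 with the replicate number as a block. Per kilobase, Hes1 was the highest of the 9 genes on average in each of the 4 groups, at 43.7 ± 8.92 CPM per kb in hairpin 1, 23.2 ± 2.16 in control 1, 99.8 ± 4.81 in hairpin 2 and 89.6 ± 6.64 in control 2. Hey1, a related repressor gene on chromosome 3 (8663359 to 8667256, minus strand; ENSMUSG00000040289), had 0, 3 and 9 counts in hairpin 1 and 2, 3 and 15 counts in control 1, and did not enter the test there. The count of 0 in hairpin 1 replicate 1 has a 95% upper limit of 0.161 CPM, and the floor of 3 counts is 0.131 CPM in that library. In set 2 Hey1 was at 5.08, 5.09, 4.87 and 5.39 CPM in hairpin 2 against 4.77, 4.46, 4.85 and 5.29 CPM in control 2, overlapping (log2 0.08, SE 0.114, adjusted p = 0.78, edgeR).

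Atoh1 commits crypt cells to the secretory lineages. Atoh1, on chromosome 6 (64729125 to 64731245, plus strand; ENSMUSG00000073043), was at 2.36, 58.4 and 51.7 CPM in hairpin 1 against 23.9, 20.5 and 28.9 CPM in control 1. The 3 hairpin 1 libraries thus lay on both sides of the controls, with replicate 1 below and replicates 2 and 3 above all of them. The counts behind them were 54, 1042 and 977 in hairpin 1 and 411, 347 and 494 in control 1, so the split was not at the detection limit. The log2 fold change was 0.62 (SE 0.896, adjusted p = 0.903, edgeR), and 1.17 (adjusted p = 0.0703) without hairpin 1 replicate 1. In set 2 Atoh1 was at 4.81, 4.81, 4.11 and 4.90 CPM in hairpin 2 against 3.50, 4.46, 4.73 and 4.97 CPM in control 2, overlapping (log2 0.08, SE 0.144, adjusted p = 0.817, edgeR).

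Summed goblet cell genes showed the same split as Atoh1 in set 1, and Paneth cell genes did so in part. The sum of the tuft cell genes went the other way, mostly through Avil. The 10 goblet genes, which include the mucin Muc2, summed to 124, 2349 and 2304 CPM in hairpin 1 against 1950, 1077 and 1809 CPM in control 1. Spink4 and Clca1 of this list did not show the full split, and the others did. Spink4 had a maximum of 276 CPM in hairpin 1 and of 504 CPM in control 1. Clca1 had a hairpin 1 median of 14.4 CPM, under the control 1 maximum of 14.7 CPM. Paneth genes summed to 80.3 CPM in hairpin 1 replicate 1 and to 2236 and 2014 CPM in replicates 2 and 3, against 876 to 1917 CPM in control 1. Muc2 alone was at 8.49, 375 and 274 CPM in hairpin 1 against 217, 141 and 181 CPM in control 1, and Lyz1 at 1.84, 1312 and 1036 CPM in hairpin 1 against 520, 532 and 351 CPM in control 1. The Paneth sum in replicates 2 and 3 was largely Lyz1, a lysozyme gene. Without Lyz1, Paneth genes summed to 78.4, 924 and 978 CPM in hairpin 1 against 906, 344 and 1566 CPM in control 1, so replicate 1 was below and replicates 2 and 3 were within the control range. Ang4, Mmp7, Defa17, Defa24 and Itln1 each had a hairpin 1 maximum below the control 1 maximum, for example 250 CPM in hairpin 1 and 377 CPM in control 1 for Ang4, an antimicrobial gene. In these bulk libraries, fewer cells of a type and less RNA per cell cannot be told apart. Spdef, the goblet and Paneth transcription factor gene, was at 2.76, 67.0 and 48.4 CPM in hairpin 1 against 59.7, 50.9 and 87.0 CPM in control 1, low in replicate 1 but not above the controls in replicates 2 and 3. Enteroendocrine genes, all at low levels, summed to 1.05, 14.1 and 13.6 CPM in hairpin 1 against 4.89 to 8.89 CPM in control 1. Tuft genes summed to 20.4, 3.81 and 2.01 CPM in hairpin 1 against 4.88 to 7.25 CPM in control 1. Most of the high tuft sum was Avil, with a hairpin 1 maximum of 18.5 CPM. Trpm5, of the same tuft list, was instead lower, at 0.22 to 0.56 CPM in hairpin 1 and 0.99 to 1.12 CPM in control 1. Some genes outside the secretory lineages were also low in replicate 1, and others were not. Enterocyte genes summed to 131, 656 and 547 CPM in hairpin 1 against 669, 593 and 478 CPM in control 1. Slc5a1, a glucose transporter gene, was at 1.66, 106 and 73.2 CPM in hairpin 1 against 55.3, 53.7 and 41.8 CPM in control 1, the same split as Atoh1. Krt20, of the same enterocyte list, was at 49.9, 6.5 and 1.85 CPM in hairpin 1 against 8.48, 1.59 and 3.45 CPM in control 1. Krt20 was thus highest in replicate 1. Fabp2, also of that list, was at 2.28 to 2.84 CPM in hairpin 1 and 0.35 to 1.28 CPM in control 1. Hnf4a was at 57.3, 297 and 284 CPM in hairpin 1 against 347, 337 and 267 CPM in control 1, and the stem cell gene Ascl2 at 6.78, 58.6 and 68.3 CPM in hairpin 1 against 67.8, 72.8 and 55.5 CPM in control 1. The 8 stem cell genes summed to 1398, 2426 and 1802 CPM in hairpin 1 against 1545, 1618 and 1474 CPM in control 1. In that sum replicate 1 was the lowest but close to the controls. No gene of the goblet, Paneth, secretory transcription factor, enterocyte or stem cell lists passed the test for hairpin 1, where 10, 6, 13, 10 and 8 were tested.

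**Figure D4:**
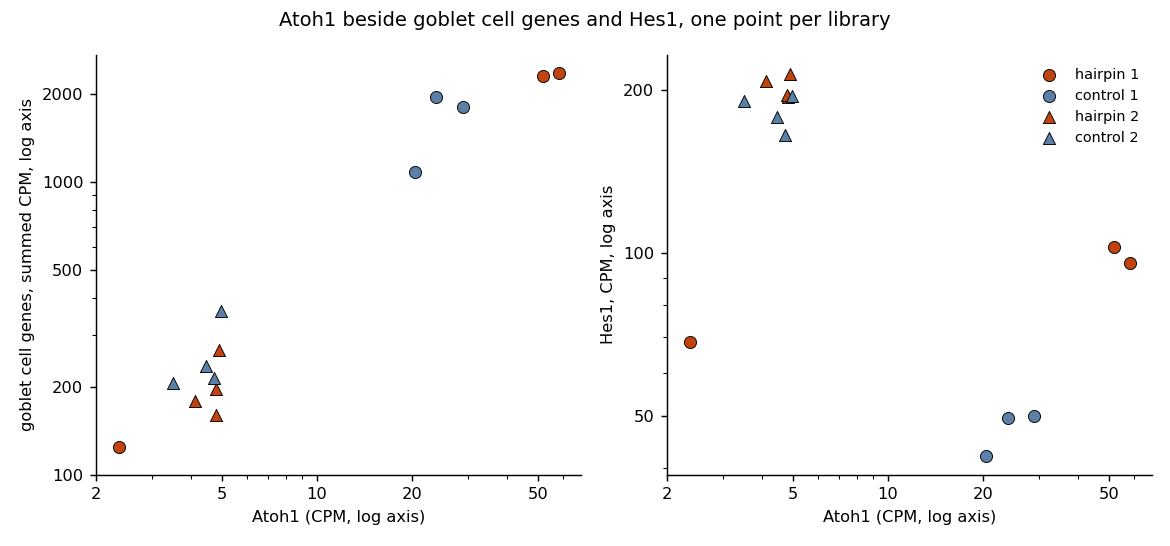
Atoh1 in each library (x axis, CPM, log scale) beside the summed CPM of the goblet genes (left, log scale) and the CPM of Hes1 (right, log scale); circles are set 1, triangles set 2, red the hairpins and blue the controls. Hairpin 1 replicate 1 lies at 2.36 CPM of Atoh1 and 124 CPM of goblet genes, while its Hes1 level of 68.3 CPM is above the 42.2 to 49.99 CPM of control 1.

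In set 2, goblet genes summed to 159 to 268 CPM in hairpin 2 and 206 to 361 CPM in control 2, and Paneth genes to 25.2 to 39.9 CPM in hairpin 2 and 29.3 to 60.2 CPM in control 2. Of 8 goblet genes tested, 3 fell and 0 rose, beside the 4.01% of all genes that fell. They were the guanylin gene Guca2a (log2 -3.45, SE 0.46; 0.353 ± 0.0449 and 3.86 ± 2.30 CPM for hairpin 2 and control 2), Galnt12, which starts mucin-type glycans (-0.51, SE 0.0831; 26.3 ± 1.44 and 37.5 ± 3.70 CPM), and Clca1 (-0.55, SE 0.137). Clca1 kept an adjusted p under 0.05 (edgeR) when hairpin 2 replicate 4 was left out, and had 0.0774 to 0.132 when any other library was. Of 9 secretory transcription factor genes tested, 1 fell: Creb3l1, at 5.15 ± 0.50 CPM in hairpin 2 and 10.1 ± 2.08 CPM in control 2 (log2 -0.96, SE 0.158, adjusted p = 0.00623, edgeR). Of 4 Paneth genes tested, 0 passed. With the replicate block, under which 10.1% of all genes fell and 10.2% rose, 6 of the 8 goblet genes fell and 1 rose, 2 of the 4 Paneth genes fell, and of the 9 transcription factor genes 3 rose and 1 fell. Absorptive genes were lower too: 5 of 8 enterocyte genes tested fell, with Krt20 at 6.85 ± 1.21 CPM in hairpin 2 and 42.5 ± 3.77 CPM in control 2 (log2 -2.65, SE 0.134), and the transcription factor gene Hnf4a at 143 ± 28.4 CPM in hairpin 2 and 295 ± 17.9 CPM in control 2 (-1.04, SE 0.131). The others were the fatty acid binding protein gene Fabp2 (-3.59), the glucose transporter gene Slc5a1 (-2.02) and the disaccharidase gene Mgam (-0.90). Of 8 stem cell genes tested, 4 fell: Lrig1 (-0.99), Ephb2 (-0.41), Msi1 (-0.30) and Smoc2 (-0.27). Msi1 had an adjusted p above 0.05 (0.0543 to 0.152, edgeR) without any one library other than hairpin 2 replicate 1, and Smoc2 (0.0573 to 0.0755) without replicate 2 or 3 of hairpin 2 or replicate 1, 2 or 3 of control 2. With the replicate block 6 of the 8 stem cell genes fell, beside the same 10.1%. Of 7 epithelial genes tested, 3 fell, namely Krt8 (-0.89), Krt18 (-0.41) and Cdh1 (-0.28). Of 3 fibroblast genes tested, Pdgfra rose (0.55; 14.5 ± 0.75 CPM in hairpin 2 and 9.94 ± 1.00 CPM in control 2) and Pdgfrb fell (-3.41; 0.128 ± 0.0945 CPM in hairpin 2 and 1.44 ± 0.75 CPM in control 2). The part of these epithelial values in the level of Dll4 was not tested. In the model of all 14 libraries, where 120 genes passed for hairpin 2, the genes named in this paragraph did not pass, except Fabp2, Krt8 and Lrig1.

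The machinery around the 9 genes was measured through 50 other Notch pathway genes, chosen by role. For hairpin 1, 44 were tested, 0 passed, and 22 lay above and 22 below a log2 fold change of 0, with a median of 0.03 against 0.03 over all genes. For hairpin 2, 45 were tested, and 1 rose and 1 fell, beside 2.04% of all genes that rose and 4.01% that fell. The median was 0.01 against 0.00499 over all genes. The gene that fell was Dtx3, of the Deltex family of Notch regulators. It was at 43.3, 45.8, 40.9 and 45.3 CPM in hairpin 2 against 69.9, 56.8, 59.6 and 70.8 CPM in control 2, without overlap (log2 -0.55, SE 0.0843, adjusted p = 0.00394, edgeR). Dtx3 was also low in set 1, at 2.14, 2.64 and 2.81 CPM in hairpin 1 against 6.74, 3.66 and 10.9 CPM in control 1, again without overlap, but did not pass there (-1.49, SE 0.476, adjusted p = 0.801, edgeR). The gene that rose was Ctbp1, a corepressor gene, at 325, 317, 304 and 334 CPM in hairpin 2 against 286, 281, 268 and 261 CPM in control 2 (log2 0.22, SE 0.0541, adjusted p = 0.0393, edgeR). Its adjusted p was above 0.05 when any library but hairpin 2 replicate 4 was left out, with 0.0521 to 0.103. In the model of all 14 libraries, neither Dtx3 nor Ctbp1 passed for hairpin 2.

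RBPJ and its coactivators had 7 of 7 genes above 0 for hairpin 2, beside 51.1% of all genes, but 0 passed, and 3 passed with the replicate block, all higher, beside 10.2% of all genes. Maml1 (log2 0.24, adjusted p = 0.102, edgeR) and Kat2b (0.22, adjusted p = 0.192, edgeR) had the smallest p, and for hairpin 1 the count above 0 was 5 of 7, beside 52.5% of all genes. Corepressor genes summed to 990 to 1031 CPM in hairpin 2 and 891 to 956 CPM in control 2. Among receptor cleavage genes, Aph1b, a gamma-secretase subunit gene, was at 9.32 ± 1.03 CPM in hairpin 2 and 12.3 ± 0.52 CPM in control 2 (-0.39, adjusted p = 0.0525, edgeR), and Adam17, which sheds receptors, at 121 ± 5.39 CPM in hairpin 2 and 106 ± 5.40 CPM in control 2 (0.19, adjusted p = 0.0887, edgeR). With the replicate block, 11 of the 45 passed, 8 higher and 3 lower, beside 20.4% of all genes. For hairpin 1, the smallest p after Dtx3 were those of Ncstn, the nicastrin gene of gamma-secretase (95.51 ± 13.98 CPM in hairpin 1, 70.2 ± 1.02 CPM in control 1, log2 0.45), and Rfng, a Fringe glycosyltransferase gene (35.1 ± 5.44 CPM in hairpin 1, 49.5 ± 2.42 CPM in control 1, log2 -0.50), each with adjusted p = 0.801 (edgeR). Of the 8 genes listed here as other targets, Hes6 was at 90.2, 186 and 277 CPM in hairpin 1 against 256, 231 and 419 CPM in control 1, and at 957, 897, 887 and 557 CPM in hairpin 2 against 828.9, 811.2, 726 and 639 CPM in control 2, overlapping in both sets. Nrarp was at 7.26, 1.46 and 2.01 CPM in hairpin 1 against 2.44, 2.77 and 2.11 CPM in control 1. In set 2 Nrarp was at 3.58 ± 0.59 CPM in hairpin 2 and 3.33 ± 0.16 CPM in control 2.

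The effects of the hairpins were set against each other in 1 model of the 14 libraries, as the hairpin 2 log2 fold change minus that of hairpin 1. Of 15043 genes tested, 62 passed (0.412%), 7 of them higher (0.0465%) and 55 lower (0.366%), and 0 of the 9 members did. Hes1 came nearest, at -0.77 (SE 0.193, adjusted p = 0.113, edgeR), its log2 fold change being smaller for hairpin 2, and it had adjusted p = 0.0169 in DESeq2's Wald test. Without hairpin 1 replicate 1, 3 members passed: Hes1 at -0.96 (adjusted p = 0.00142), Atoh1 at -1.13 (adjusted p = 0.0106) and Jag2 at 0.70 (adjusted p = 0.0426), beside 959 genes in all (edgeR). The hairpin, the clone and the set cannot be told apart in this difference.

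**Figure D5:**
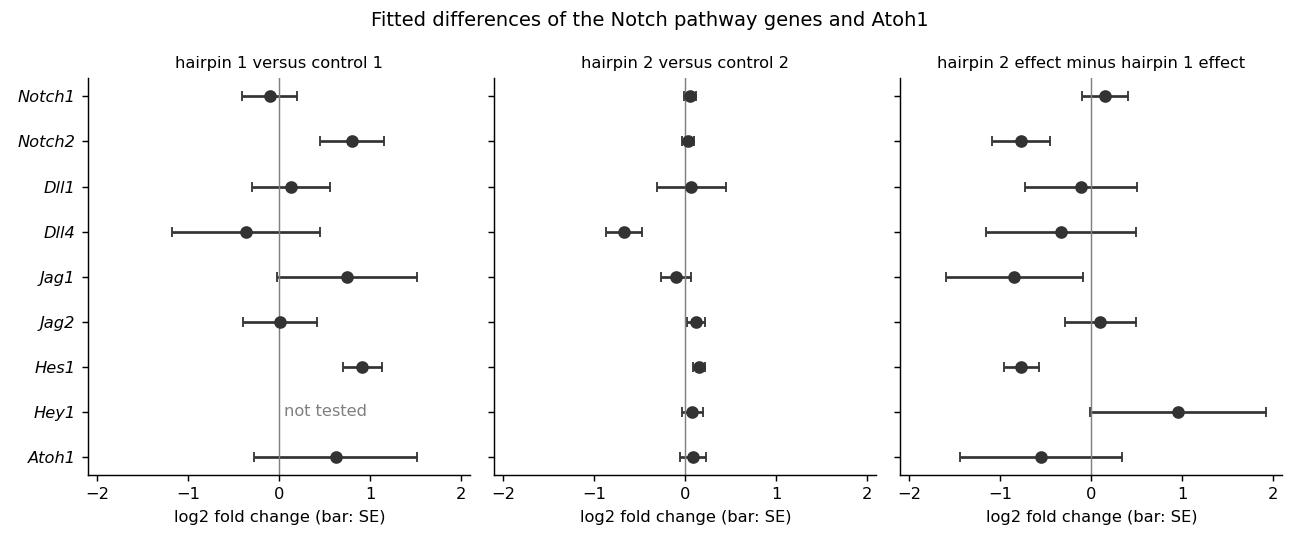
Fitted log2 fold change (point) and its SE (bar) of each gene for hairpin 1 against control 1 (left), hairpin 2 against control 2 (middle), and the hairpin 2 value minus the hairpin 1 value (right). Hes1 is at 0.91 and Notch2 at 0.80 for hairpin 1, Dll4 is at -0.67 for hairpin 2, and the hairpin 1 bars are wider than those of hairpin 2 for every gene tested in both.

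The genes with the pattern most like that of Atoh1 and of Hes1 were found over all 14 libraries, by the root mean square (RMS) difference of log2(CPM + 0.5) centred on each set. For Atoh1, among 9397 genes, these were Aoc1 (RMS difference 0.270), Kit (0.275), Acot1 (0.288), Fcgbp (0.289), Ccdc3 (0.297) and Smoc2 (0.297), against a median of 0.972. Fcgbp, a goblet cell gene, was at 5.29, 117 and 129 CPM in hairpin 1 against 74.9, 66.0 and 87.6 CPM in control 1. Kit, a receptor gene, was at 1.93, 68.4 and 35.7 CPM in hairpin 1 against 26.9, 18.7 and 39.1 CPM in control 1. For Hes1, among 9396 genes, these were Tnf (0.141), Fam174a (0.146), Emc7 (0.147), Smim8 (0.149), Yipf4 (0.155) and Fbxo8 (0.156), against a median of 0.405. Tnf, a cytokine gene, was at 7.74, 12.4 and 11.7 CPM in hairpin 1 against 5.23, 5.19 and 4.68 CPM in control 1. All libraries of a set share its centring, and the likeness is a description. Atoh1 departed from its control mean by -3.12, 1.24 and 1.07 (log2) in hairpin 1, and by -0.30 to 0.15 in set 2. Hairpin 1 replicate 1 thus weighed most in the Atoh1 ranking.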

How the data were processed

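Per the labels' protocols, poly(A) RNA was made into stranded libraries. The authors deposited raw counts, whole numbers for each gene, and the values show no normalization. Tools named per the submitters' processing notes are bcl2fastq 2.20, FastQC, STAR, featureCounts and DESeq2, with build GRCm38; other versions, the counting settings and the use of strand were not found in the sources used here. Reads of antisense or overlapping genes therefore cannot be told apart. Set 1 files list 55421 genes and set 2 files 17490. GENCODE M21 matched 55154 and 17464 of them and gave positions and exonic lengths.

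The members, gene lists, tests and alternatives were chosen with earlier results of these data known. The main test, run on each set by itself, was edgeR's quasi-likelihood test (version 4.0.16 in R 4.3.3) with TMM scaling, the filterByExpr filter and Benjamini-Hochberg adjustment over all genes tested, with a threshold of 0.05. The SE is the log2 fold change divided by the root of its F statistic. Unless another tool is named, adjusted p-values are edgeR's. Named genes were all members, Kmt5c, genes of the lists past the threshold or otherwise among the 3 smallest p-values of a list, and the 6 genes most like Atoh1 and Hes1 at a mean level of at least 5 CPM in each set. A gene that met this rule is not reported here. Levels of other genes, such as Notch3 and Muc2, were chosen after their values were seen. Intervals and the floor of 3 counts cover counting error only. Scripts were tested on simulated data.

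In set 2, libraries with the same replicate number deviated together (correlations 0.323, 0.214, 0.333 and 0.66, all over 0.1). They were treated as pairs only in the replicate block, an alternative, and the main test had no block. The pairing rests on the data, not on the labels. Different numbers among replicates 1 to 3 gave 0.15 to 0.265, also over 0.1, so this limit does not set pairs apart there. In set 1 the correlations for equal numbers were 0.254, -0.00379 and 0.287, and the numbers were not taken to pair. No libraries of a group agreed within sampling noise (lowest chi-square per gene 2.99). Alternatives were DESeq2 size factors, no filter, DESeq2's Wald test (version 1.42.0), a replicate block, voom with library quality weights (limma 3.58.1), a model of all 14 libraries, and leaving out libraries.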

Additional observations from a re-analysis of the deposited data

Results flagged for a closer look

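Over the 20 groups of 4 libraries examined, of which chance sets about 1 in 20 apart, Dixon's gap test marked 2. Atoh1 was lowest in hairpin 2 replicate 3, at 4.11 CPM, with the other hairpin 2 libraries at 4.81 to 4.90 CPM. Notch1 was highest in control 2 replicate 2, at 47.1 CPM, with the other control 2 libraries at 43.1 to 43.7 CPM.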

How the results depend on the processing

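The cause of each change listed here was not tested. Counts of genes past the threshold for hairpin 1 were 22 with DESeq2's Wald test, 8 with voom, 187 in the model of all 14 libraries and 0 to 1 when a library was left out. For hairpin 2 they were 1346 with DESeq2's test, 2880 with the replicate block, 2466 with voom, 120 in the model of all 14 libraries, 2396 without both replicate 4 libraries and 453 (without control 2 replicate 2) to 1409 (without hairpin 2 replicate 4) when a library was left out. For the difference they were 395 with DESeq2's test, 1207 with voom and 27 (without hairpin 2 replicate 1) to 959 (without hairpin 1 replicate 1) when a library was left out, with 248 without control 1 replicate 2. Members past the threshold numbered 1 for hairpin 1 in the model of all 14 libraries (Hes1). For hairpin 2 they numbered 1 with DESeq2's test, 2 with the replicate block, 2 with voom, 2 without both replicate 4 libraries and 0 to 2 when a library was left out; for the difference 1 with DESeq2's test, 2 with voom and 0 to 3. Other pathway genes past the threshold for hairpin 1 were 1 in the model of all 14 libraries (Dtx3, adjusted p = 0.0338, edgeR) and 0 when any library was left out. For hairpin 2 they were 6 with DESeq2's test, 11 with the replicate block, 7 with voom, 0 in the model of all 14 libraries, 9 without both replicate 4 libraries and 1 to 6 when a library was left out; for the difference 1 with DESeq2's test, 4 with voom and 0 to 5.

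Signs of fitted differences (log2) changed under some alternatives. For hairpin 1 they turned with voom for Dll4 (0.21), Jag1 (-0.84) and Jag2 (-0.58), with no filter for Jag2 (-0.017), and with the replicate block for Jag2 (-0.15) and Atoh1 (-0.0566). When a library was left out, the hairpin 1 values ran from -0.37 to 0.16 for Notch1, -0.36 to 0.40 for Dll1, -0.93 to 0.21 for Dll4, -0.86 to 1.20 for Jag1 and -0.63 to 0.27 for Jag2. For hairpin 2, Dll1 was -0.0102 with the replicate block. Values with a library left out ran from -0.003 to 0.0796 for Notch1, -0.0036 to 0.0605 for Notch2, -0.13 to 0.33 for Dll1, -0.32 to 0.0047 for Jag1 and -0.013 to 0.15 for Atoh1. For the difference, the replicate block gave 0.0734 for Dll4 and 0.11 for Atoh1, and voom gave 0.58 for Jag1. Values with a library left out ran from -0.0701 to 0.38 for Notch1, -0.38 to 0.36 for Dll1, -0.91 to 0.20 for Dll4, -1.25 to 0.72 for Jag1, -0.16 to 0.70 for Jag2 and -0.44 to 2.35 for Hey1. Hes1 and Dll4 kept their sign in their own set, Hes1 for hairpin 1 and Dll4 for hairpin 2, under every alternative run. DESeq2 size factors turned no sign. Among members, Kmt5c and list genes past the threshold, the replicate block changed no call other than those of Dll4, Hes1 and Kmt5c for hairpin 2. Set 2 values of Dll1 rest on 1 to 14 counts per library, and those of Hey1 in set 1 on 0 to 15.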
